A study of Homo sapiens with 6 samples.

Results

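Type I interferon-stimulated genes and the genes of their signalling chain were examined in H1299 cells with and without a guide RNA against SETDB1. A list of 48 gene symbols was matched through GENCODE 29 to the 18677 rows of a table of read counts. Of the 48 genes, 40 had a row, 39 of these had enough counts to be tested, and the other 8 (OAS1, OAS2, OASL, MX2, RSAD2, IFI44L, XAF1 and EPSTI1) were not analysed here. The genes were listed by symbol for their place in the pathway, with earlier results of these data known. H1299 is a line of human non-small cell lung cancer cells, and the SETDB1 protein methylates histone H3 at lysine 9, a mark of silent chromatin. The SETDB1-knockout group had 3 libraries from cells with the guide hSETDB1 sg1, and the control group had 3 libraries from cells with the guide Control sg2. All cells grew in RPMI-1640 with serum and puromycin, and the labels name no interferon treatment. Since 1 guide stands for each group and separate cultures are not stated, p-values measure only the spread between these libraries, which may be technical. An effect of the guide itself and an effect of SETDB1 loss cannot be told apart.

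Type I interferons bind a receptor made of IFNAR1 and IFNAR2, whose associated kinases TYK2 and JAK1 activate STAT2. STAT2 acts with IRF9 in the complex ISGF3, which binds the interferon-stimulated response element (ISRE) in target promoters. Its targets encode antiviral proteins such as the IFIT, OAS, MX and IFITM families, the ubiquitin-like modifier ISG15 with its enzymes, and regulators of the pathway itself. SETDB1 is known in tumour cells as a silencer of retroelements and of immune gene clusters.

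The letters of the ISRE were searched as GAAA, any 2 bases and GAAA, on both strands. Each promoter window ran from 250 bases before to 50 bases after a RefSeq start (GRCh38.p14). Of the 48 genes, 39 had a promoter window in the RefSeq table used, and 26 of these (66.7%) held the letters in at least 1 window. Over all 27305 gene symbols of that table, 4.38% did. A match is a description of the letters and not a measured binding site. The following 8 stretches show ISRE letters in capitals in genes that were not called (ISG15, IFI6), rose (IFITM1, IFITM3) or fell (IFIT3, SAMD9, DDX60, DTX3L). Each is written 5′ to 3′ on the strand of its gene, and capitals that start with TTTC are the same letters on the other strand.
ISG15 (chr1:1013369-1013414, plus strand): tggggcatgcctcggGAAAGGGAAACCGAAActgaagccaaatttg
IFI6 (chr1:27672261-27672363, minus strand): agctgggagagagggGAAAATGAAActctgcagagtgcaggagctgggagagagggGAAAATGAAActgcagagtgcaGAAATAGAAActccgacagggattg
IFITM1 (chr11:313985-314043, plus strand): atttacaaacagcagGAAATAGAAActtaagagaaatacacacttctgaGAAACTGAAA
IFITM3 (chr11:320871-320927, minus strand): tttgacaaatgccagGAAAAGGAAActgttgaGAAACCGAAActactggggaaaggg
IFIT3 (chr10:89327826-89327899, plus strand): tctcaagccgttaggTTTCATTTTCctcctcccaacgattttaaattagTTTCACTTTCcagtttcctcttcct
SAMD9 (chr7:93118091-93118130, minus strand): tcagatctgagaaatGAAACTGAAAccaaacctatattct
DDX60 (chr4:168318781-168318855, minus strand): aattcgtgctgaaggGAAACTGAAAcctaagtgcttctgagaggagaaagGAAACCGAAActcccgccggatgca
DTX3L (chr3:122564317-122564341, plus strand): gacctccagggaagcGAAACTGAAA

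The libraries held 29532057 to 35941288 counts, so that 1 count equalled 0.0282 to 0.0334 CPM, the count scaled by the library total after edgeR's TMM adjustment. Below, ± is the SD over n = 3 libraries for a level and the standard error (SE) for a log2 fold change. SETDB1 mRNA was at 40.6, 36.1 and 39.1 CPM with the SETDB1 guide, against 45.01, 43.96 and 41.6 CPM with the control guide, and fell by 0.17 on the log2 scale (edgeR adjusted p = 0.0151). Counts over the whole gene do not test a small edit within it. The epithelial keratin genes KRT8 and KRT18 were expressed, at 367 ± 9.58 and 599 ± 30.7 CPM (control) against 157 ± 0.703 and 332 ± 6.43 CPM (SETDB1 knockout). EPCAM, another epithelial marker, was nearly absent, at 0.254 ± 0.0765 and 0.179 ± 0.0694 CPM. The part of the keratin differences in the results below was not tested. Of 13 markers of leukocytes, endothelium and fibroblasts, 5 had a row and none exceeded 1.235 CPM. Their summed level was 1.849 to 2.033 CPM in SETDB1-knockout libraries and 1.92 to 2.436 CPM in control libraries. In such bulk libraries, fewer cells that express a gene and less RNA per cell cannot be told apart.

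The interferon-stimulated genes did not move as a block. Of the 39 genes tested, 7 rose and 18 fell in the SETDB1 knockout, while 14 did not pass the test (edgeR quasi-likelihood test, Benjamini-Hochberg adjusted p under 0.05 over 17675 genes). Rises were called for 17.9% of the tested interferon genes, against 31.9% of all genes tested. Falls were called for 46.2%, against 31.6% of all genes. The share called in either direction, 64.1%, was near the 63.5% of all genes. The median log2 fold change (SETDB1 knockout over control) was -0.15 over the 39 genes and 0.01 over all genes tested. At least 2-fold falls were called for 6 genes (IFIT2, IFIT3, MX1, SAMD9, SAMD9L and NMI), where 5.78% of all genes had such a fall, and an at least 2-fold rise among the tested genes for IFITM2 alone, where 7.14% of all genes had one. The libraries of the groups did not overlap for 8 tested interferon genes that were higher and 18 that were lower, against 33.5% and 33.3% of all genes. These shares over the list carry no test of their own. MX1, counted among the falls, reached the row minimum of 11 counts only in control libraries.

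**Figure D1:**
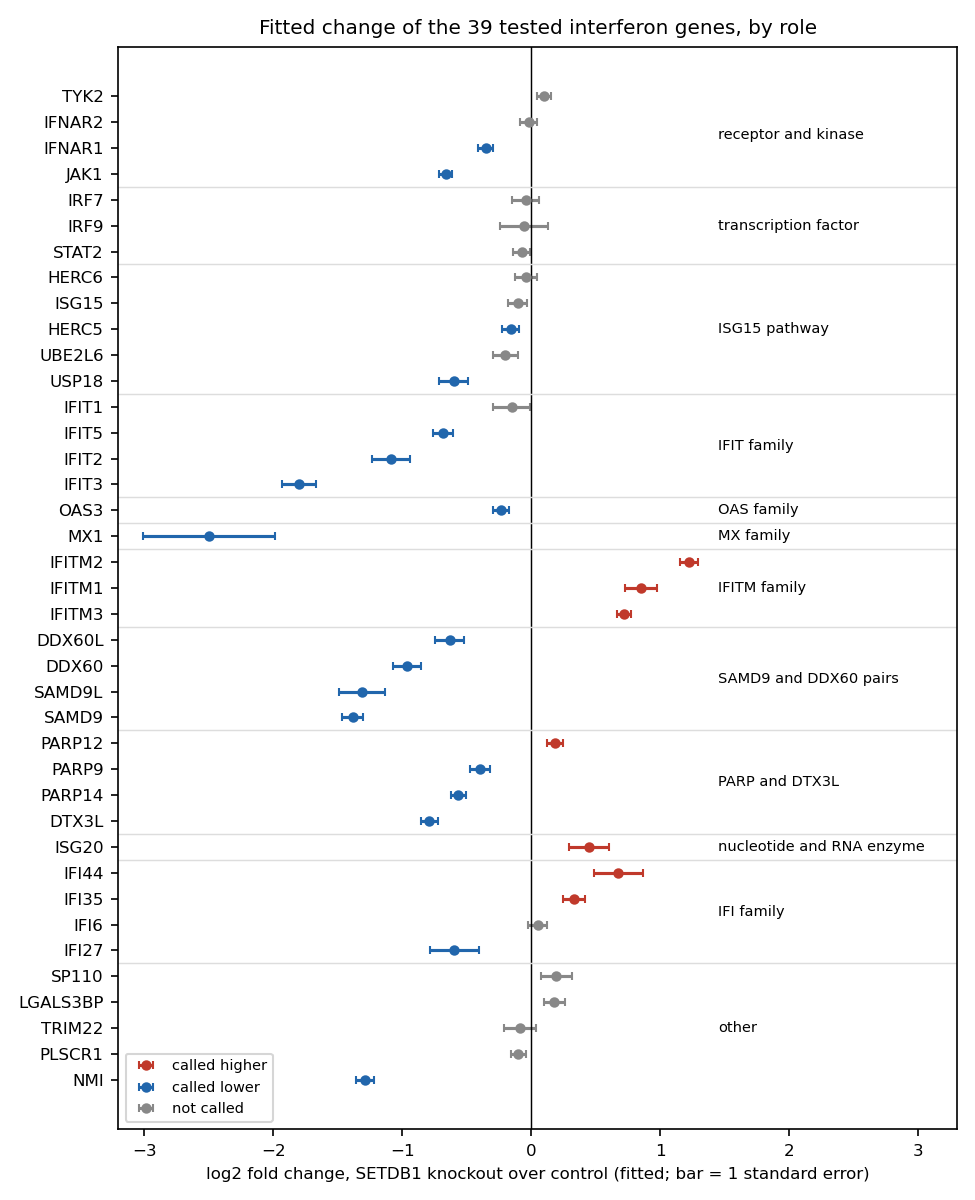
Fitted log2 fold change (x axis, SETDB1 knockout over control) of each of the 39 tested genes (y axis, grouped by role); points are edgeR estimates, bars are 1 standard error, and colour gives the call. The 3 IFITM genes lie to the right of 0, the SAMD9 and DDX60 pairs lie to the left, and STAT2, IRF9 and IRF7 lie next to 0.

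**Figure D2:**
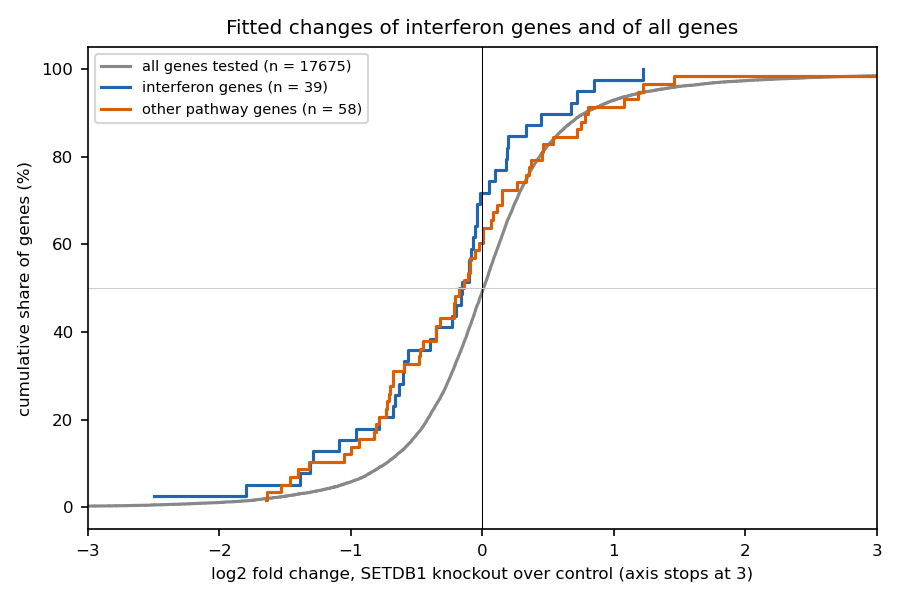
Cumulative share of genes (y axis, %) by fitted log2 fold change (x axis, drawn from -3 to 3, so that BST2 lies outside) for the 39 tested interferon genes, 58 other genes of the pathway and all 17675 genes tested. Both interferon curves lie left of the curve of all genes between -1 and 0, with medians of -0.15 and -0.16 against 0.01.

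Among the genes of the receptor, the signalling kinase gene JAK1 and the receptor gene IFNAR1 fell, and the other receptor chain and kinase were not called. JAK1 (ENSG00000162434, GRCh38 chromosome 1, 64833229 to 64966504) encodes the kinase bound to IFNAR2 and had 137, 142 and 149.9 CPM in control and 90.01, 92.02 and 88.7 CPM in SETDB1-knockout libraries. All 3 SETDB1-knockout values lay well below all 3 control values, and JAK1 fell by 0.66 ± 0.05 on the log2 scale (edgeR adjusted p = 1.32e-09). IFNAR1 (ENSG00000142166, chromosome 21, 33324477 to 33359862) had 122, 115 and 109.5 CPM in control and 86.3, 95.1 and 89.5 CPM in SETDB1-knockout libraries. Its groups did not overlap either, and it fell by 0.35 ± 0.06 on the log2 scale (edgeR adjusted p = 1.72e-05).

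IFNAR2, the long-tailed signalling chain, had 29.7, 29.2 and 25.1 CPM in control and 29.03, 26.7 and 26.98 CPM in SETDB1-knockout libraries, and these ranges overlapped (log2 fold change -0.02 ± 0.07, edgeR adjusted p = 0.811). In GENCODE 29 other genes (AP000295.1 on the same strand, IL10RB-DT on the other) cover 83.2% of its exon bases, so its counts are uncertain. TYK2, the kinase bound to IFNAR1, had 114, 116 and 109 CPM in control and 126, 115 and 122 CPM in SETDB1-knockout libraries. One SETDB1-knockout library fell inside the control range, and TYK2 was not called at 0.10 ± 0.05 (edgeR adjusted p = 0.125). It passed at 0.14 with library size alone (adjusted p = 0.0331, from 0.0115 to 1 across the alternatives), and at 0.13 with upper-quartile scaling (0.0469). The lowest value, an edgeR adjusted p of 0.0115, came relative to the expressed genes around TYK2, where it was called lower at -0.17.

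The 3 transcription factor genes of the list were not called. STAT2, a subunit of ISGF3, had 36.97, 37.1 and 36.97 CPM in control and 38.8, 32.5 and 34.3 CPM in SETDB1-knockout libraries. The control values lay inside the wider range of the SETDB1 knockout (log2 fold change -0.07 ± 0.06, edgeR adjusted p = 0.323), but without SETDB1-knockout replicate 1 STAT2 was called lower at -0.15 (adjusted p = 0.0351, from 4.06e-04 to 1 across the alternatives). IRF9, the DNA-binding subunit of ISGF3, stood low, at 1.43, 1.48 and 1.55 CPM in control and 1.37, 1.13 and 1.81 CPM in SETDB1-knockout libraries. Its log2 fold change of -0.05 ± 0.19 has a wide error, and 48.4% of its exon bases overlap another gene on the same strand. IRF7, the factor that amplifies interferon production, had 5.41, 4.86 and 4.83 CPM in control and 4.399, 4.91 and 5.27 CPM in SETDB1-knockout libraries (log2 fold change -0.04 ± 0.10, edgeR adjusted p = 0.738).

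In the ISG15 system, the gene for the enzyme that removes ISG15 fell while the modifier itself was not called. ISG15 (ENSG00000187608, chromosome 1, 1001138 to 1014540) encodes a ubiquitin-like protein attached to other proteins. It had 13.8, 13.1 and 13.4 CPM in control and 11.8, 12.2 and 13.4 CPM in SETDB1-knockout libraries, and 1 SETDB1-knockout library lay inside the control range (log2 fold change -0.10 ± 0.07, edgeR adjusted p = 0.224). USP18, which encodes the deconjugating enzyme and an inhibitor of the receptor, had 4.74, 5.52 and 5.37 CPM in control and 3.13, 3.55 and 3.599 CPM in SETDB1-knockout libraries. Its groups were apart, and USP18 fell by 0.60 ± 0.11 (edgeR adjusted p = 8.84e-05). Of the 37 expressed genes around it 24 were called lower, and relative to their median of -0.24 USP18 was at -0.36 (adjusted p = 0.00876). Words of 50 bases that USP18 transcripts share with other genes make up 23.4% of them, nearly all with its paralog USP41, so part of its reads can belong to that copy.

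The ligase gene HERC5 was called lower at -0.16 ± 0.07, with an edgeR adjusted p of 0.0488 that sits at the threshold. The call was lost with library size alone (0.143), upper-quartile scaling (0.115), the filter of 1 CPM in 3 libraries (0.0521), DESeq2 (0.104) and limma-voom (0.0518). It was also lost without SETDB1-knockout replicate 1 (log2 fold change -0.16, adjusted p = 0.0655) or replicate 3 (-0.14, 0.161), and without control replicate 2 (-0.19, 0.0536) or replicate 3 (-0.10, 0.221), from 0.0256 to 1 across the alternatives. UBE2L6, the conjugating enzyme gene, and HERC6 were not called, at -0.20 ± 0.10 and -0.04 ± 0.08, although UBE2L6 was called lower at -0.29 without control replicate 2 (adjusted p = 0.0262, from 0.00379 to 1 across the alternatives).

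The IFIT genes, which encode RNA-binding proteins that block translation of foreign RNA, sit side by side on chromosome 10, and 3 of 4 fell by unlike amounts. IFIT3 (ENSG00000119917, chromosome 10, 89327894 to 89340971) had 5.105, 5.74 and 6.24 CPM in control and 1.37, 1.79 and 1.73 CPM in SETDB1-knockout libraries. All SETDB1-knockout libraries lay far under all control libraries, and IFIT3 fell by 1.80 ± 0.13 on the log2 scale (edgeR adjusted p = 4.91e-10). IFIT2 (chromosome 10, 89283694 to 89309276) went from 2.87, 2.93 and 3.47 CPM to 1.57, 1.47 and 1.35 CPM, and fell by 1.09 ± 0.15 without overlap of the groups (edgeR adjusted p = 2.32e-06).

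IFIT5 (chromosome 10, 89414586 to 89421001), the most abundant of the 4 in CPM, had 12.98, 12.8 and 13.8 CPM in control and 7.63, 8.55 and 8.49 CPM in SETDB1-knockout libraries and fell by 0.68 ± 0.08 (edgeR adjusted p = 2.72e-07). IFIT1 (chromosome 10, 89392546 to 89406486), which recognises RNA caps that lack a methyl mark, had 2.17, 2.08 and 2.54 CPM in control and 2.20, 1.99 and 1.96 CPM in SETDB1-knockout libraries. These ranges overlapped and IFIT1 was not called (log2 fold change -0.15 ± 0.14, edgeR adjusted p = 0.376). Of the 50 expressed genes (mean log2 CPM above 3) nearest to IFIT1, over 16.6 Mb, 47 were called lower and 1 higher, with a median log2 fold change of -0.69. Relative to this median, IFIT3 was at -1.11 (edgeR adjusted p = 9.60e-07), IFIT2 at -0.40 (0.0285), IFIT5 at 0.01 (0.935) and IFIT1 at 0.54 (0.00376). IFIT5 thus moved as far as its surroundings, and IFIT1 lay above them. Over all alternatives, which include this step, the adjusted p-values of the log2 fold change ranged from 3.54e-15 to 0.935 for IFIT5 and from 0.00376 to 1 for IFIT1. The part of the surrounding stretch in these falls was not tested.

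MX1, OAS3 and CMPK2 were further antiviral effector genes analysed, and MX1 and CMPK2 stayed under 1 CPM in every library of both groups. MX1 (ENSG00000157601, chromosome 21, 41420304 to 41459214), a dynamin-like GTPase that traps viral ribonucleoproteins, had 0.367, 0.347 and 0.367 CPM in control and 0.133, 0.0289 and 0.0293 CPM in SETDB1-knockout libraries. These levels rest on 35 control counts and 6 SETDB1-knockout counts. MX1 was thus 5.94 times higher in control cells (95% counting interval 2.47 to 17.26), with no overlap of the groups (edgeR adjusted p = 2.81e-04). The log2 fold change of MX1, -2.50 ± 0.51, became -3.47 without SETDB1-knockout replicate 1 (adjusted p = 9.63e-05, from 1.89e-05 to 0.00347 across the alternatives). No row had fewer than 11 counts in its highest library, and MX1 reached this only in control libraries. Its interval, lack of overlap and adjusted p-values do not account for this selection. OAS3 (chromosome 12, 112938352 to 112973249), which makes an oligoadenylate second messenger on sensing double-stranded RNA, was better expressed and fell by 0.23 ± 0.06, from 27.9 ± 1.25 to 23.7 ± 0.982 CPM (edgeR adjusted p = 0.00268).

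CMPK2 (chromosome 2, 6840570 to 6866635), a mitochondrial nucleotide kinase gene, had 0 counts in all 3 control libraries and 36 counts in the SETDB1-knockout group, or 0.467, 0.347 and 0.293 CPM. Against a floor of 3 counts in the control group as a whole, it was at least 11.8-fold higher, and the lower limit of its exact 95% counting interval was 9.11-fold. It fell below the filter on low counts and was not tested with the others. Without that filter it was called higher (edgeR adjusted p = 1.43e-05). Interval and floor cover counting error only. No row had fewer than 11 counts in its highest library, and CMPK2 reached this only in SETDB1-knockout libraries. Fold, interval and adjusted p-value do not account for this selection.

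The IFITM genes ran the other way and all 3 rose. They encode small membrane proteins that hinder the entry of enveloped viruses and lie in a cluster near the end of chromosome 11. IFITM2 (ENSG00000185201, chromosome 11, 307631 to 315272) had 19.4, 19.9 and 20.3 CPM in control and 41.7, 47.3 and 50.04 CPM in SETDB1-knockout libraries. The lowest SETDB1-knockout value was above the highest control value by more than the spread within either group, and IFITM2 was 2.33-fold higher (log2 fold change 1.22 ± 0.07, edgeR adjusted p = 6.17e-12). IFITM3 (chromosome 11, 319669 to 327537), the most abundant effector gene here, had 72.6, 72.6 and 76.4 CPM in control and 114, 122 and 128 CPM in SETDB1-knockout libraries.

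IFITM3 rose 1.64-fold without overlap (log2 fold change 0.72 ± 0.05, edgeR adjusted p = 6.92e-10). IFITM1 (chromosome 11, 313506 to 315272) was far less abundant, at 2.74, 2.87 and 2.26 CPM in control and 4.499, 5.08 and 4.54 CPM in SETDB1-knockout libraries. It rose 1.81-fold (log2 fold change 0.85 ± 0.12, edgeR adjusted p = 5.06e-06), again with the groups apart. The genes around the cluster had medians between -0.01 and 0.03. Of the 32 expressed genes around IFITM3, 12 were called higher and 7 lower, against 31.9% and 31.6% of all genes. Their log2 fold changes ran from -0.47 to 1.46. The part of the surrounding stretch in the IFITM rises was not tested. IFITM transcripts are alike: 32%, 34.3% and 35.2% of the 50-base words of IFITM1, IFITM2 and IFITM3 also occur in transcripts of other genes. For IFITM1 and IFITM2 these are mostly each other, whose exons overlap by 351 bases on the same strand, and for IFITM3 they include AC136475.5 on the other strand, IFITM2 and IFITM1. How the rise divides between the 3 genes is therefore uncertain.

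The neighbouring genes SAMD9 and SAMD9L fell, as did the neighbours DDX60 and DDX60L. SAMD9 (ENSG00000205413, chromosome 7, 93099513 to 93118023), which encodes a large cytosolic restriction factor of poxviruses, had 16.8, 18.6 and 19.3 CPM in control and 6.83, 7.66 and 6.47 CPM in SETDB1-knockout libraries. Its groups were far apart, with a 2.61-fold lower level (log2 fold change -1.38 ± 0.08, edgeR adjusted p = 1.96e-11). Its neighbour and paralog SAMD9L (chromosome 7, 93130055 to 93148369) had 3.04, 2.68 and 2.49 CPM in control and 1.47, 1.01 and 0.849 CPM in SETDB1-knockout libraries and fell by 1.31 ± 0.18 (edgeR adjusted p = 3.12e-06). The expressed genes around the pair had a median of only -0.11.

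DDX60 (chromosome 4, 168216293 to 168318807), a helicase-like gene linked to RNA sensing, had 6.27, 6.94 and 7.15 CPM in control and 3.73, 3.73 and 3.01 CPM in SETDB1-knockout libraries and fell by 0.96 ± 0.11 (edgeR adjusted p = 2.12e-07). DDX60L (chromosome 4, 168356735 to 168537786) had 4.34, 4.19 and 4.63 CPM in control and 2.87, 2.72 and 2.93 CPM in SETDB1-knockout libraries and fell by 0.63 ± 0.11 (edgeR adjusted p = 6.79e-05). Neither gene's groups overlapped, and the median of the genes around them was -0.000238. These 4 genes share few words with other genes, at most 0.618%.

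Of the genes for ADP-ribosylation enzymes and their partner, 3 neighbours on chromosome 3 fell and PARP12 on chromosome 7 rose slightly. DTX3L (ENSG00000163840, chromosome 3, 122564238 to 122575203) encodes a ubiquitin ligase that pairs with PARP9, and the pair is transcribed from a shared promoter region in opposite directions. DTX3L had 21.7, 23.4 and 21.6 CPM in control and 12.4, 13.5 and 12.7 CPM in SETDB1-knockout libraries and fell by 0.79 ± 0.07 (edgeR adjusted p = 4.21e-09). PARP9 fell by 0.40 ± 0.08, from 14.3 ± 0.938 to 10.9 ± 0.854 CPM (edgeR adjusted p = 2.08e-04). The 2 genes overlap by 217 exon bases, a small part of either.

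PARP14 (chromosome 3, 122680618 to 122730840), a mono-ADP-ribosyltransferase gene, had 49.9, 49.5 and 51.4 CPM in control and 36.2, 33.3 and 32.6 CPM in SETDB1-knockout libraries. The groups were apart, at 1.48-fold lower (log2 fold change -0.56 ± 0.06, edgeR adjusted p = 4.00e-08). The genes around these 3 had a median of -0.06. PARP12 rose from 20.1 ± 0.856 to 22.9 ± 0.674 CPM (0.19 ± 0.06, edgeR adjusted p = 0.0138). Its call was lost without SETDB1-knockout replicate 2 (adjusted p = 0.0585) or 3 (0.0518) and without control replicate 1 (0.0575) or 2 (0.0721), at log2 fold changes of 0.16, 0.18, 0.16 and 0.17 with adjusted p from 0.00368 to 1 across the alternatives. The neighbours of PARP12 had a median of 0.27, and relative to them it was at -0.08 and not called (0.299).

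The IFI genes, named for induction by interferon, were mixed. IFI44 (chromosome 1, 78649796 to 78664078), a cytosolic protein gene, had 1.001, 0.883 and 1.16 CPM in control and 1.80, 1.705 and 1.405 CPM in SETDB1-knockout libraries. It rose without overlap by 0.68 ± 0.19 (edgeR adjusted p = 0.00361). IFI35, whose protein binds NMI, rose from 6.89 ± 0.381 to 8.67 ± 0.324 CPM (0.33 ± 0.09, edgeR adjusted p = 0.00205). IFI6, a mitochondrial and endoplasmic reticulum protein gene, was not called, at 14.9 ± 1.33 CPM in control and 15.5 ± 0.756 CPM in SETDB1-knockout libraries (edgeR adjusted p = 0.578).

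IFI27 (chromosome 14, 94104836 to 94116698), a mitochondrial membrane protein gene, was low, at 2.07, 1.99 and 1.64 CPM in control and 1.57, 0.925 and 1.29 CPM in SETDB1-knockout libraries. It fell by 0.60 ± 0.19 (edgeR adjusted p = 0.0101). Without SETDB1-knockout replicate 2 it was not called, at -0.41 (adjusted p = 0.0710, from 0.00279 to 0.836 across the alternatives). Its neighbours had a median of -0.41, and relative to them it was at -0.19 (0.426). ISG20, an RNA exonuclease gene, rose from 1.68 ± 0.182 to 2.28 ± 0.208 CPM (0.45 ± 0.15, edgeR adjusted p = 0.0159), and this call was lost with DESeq2 (0.45 at an adjusted p of 0.0672), without SETDB1-knockout replicate 3 (0.38 at 0.0732) and without control replicate 3 (0.35 at 0.0792), from 0.00162 to 1 across the alternatives.

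Among the remaining genes NMI changed and 4 were not called. NMI (ENSG00000123609, chromosome 2, 151270465 to 151290057) encodes a protein that binds transcription factors. It had 27.8, 30.3 and 32.5 CPM in control and 12.5, 12.7 and 12.03 CPM in SETDB1-knockout libraries, so that every SETDB1-knockout value was under every control value by a wide margin. NMI was 2.44-fold lower (log2 fold change -1.29 ± 0.07, edgeR adjusted p = 5.19e-12). Of the 50 expressed genes around it 43 were called lower, with a median of -0.74, and relative to them NMI was at -0.54 (edgeR adjusted p = 2.12e-06). The 4 uncalled genes were LGALS3BP, a secreted glycoprotein gene (0.18 ± 0.08), SP110, a nuclear body gene (0.20 ± 0.12), TRIM22, a restriction factor gene (-0.08 ± 0.12), and PLSCR1, a phospholipid scramblase gene (-0.10 ± 0.06).

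LGALS3BP lay close to the threshold (edgeR adjusted p = 0.0556) and was called higher with library size alone (0.22, adjusted p = 0.0145), upper-quartile scaling (0.21, 0.0295), limma-voom (0.19, 0.0497), the replicate number as a block (0.18, 0.00903) and without control replicate 1 (0.27, 0.00222), from 0.00222 to 1 across the alternatives.

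**Figure D3:**
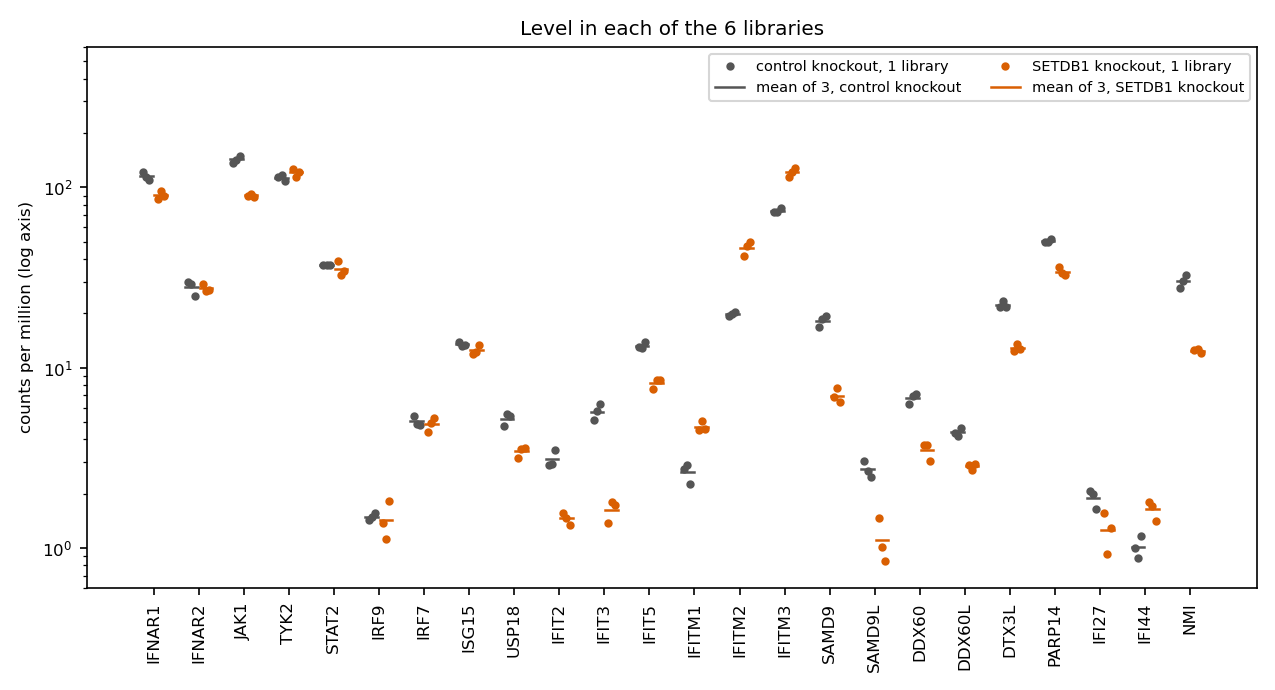
CPM (y axis, log scale) of 24 interferon genes (x axis) in each of the 3 control and 3 SETDB1-knockout libraries; points are libraries and short lines are group means. The groups do not overlap for the 3 IFITM genes, IFIT2, IFIT3, IFIT5, SAMD9, SAMD9L, JAK1 and NMI, and overlap for IFNAR2, STAT2, IRF9 and IRF7.

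Per exon length, IFITM3 led the order in both groups and IFITM2 moved up. Levels as CPM per kilobase of exon (RPKM) were highest for IFITM3 in both groups, at 54.8 ± 1.62 in control and 90.03 ± 4.94 in SETDB1-knockout cells. IFITM2 moved from the seventh to the second place, from 12.9 ± 0.279 to 30.03 ± 2.77 RPKM. JAK1 went from the second place (22.6 ± 1.06 RPKM) to the sixth (14.3 ± 0.265), and NMI from the eighth (8.68 ± 0.686) to the 16th (3.56 ± 0.0956). In control cells IFNAR1, IFI6 and TYK2 followed JAK1 at 18.3 ± 1.02, 17.3 ± 1.54 and 16.7 ± 0.5898 RPKM, and these neighbouring places differ by no more than their spread. The lowest places were those of MX1, at 0.0418 ± 0.00135 RPKM in control, and of CMPK2.

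Summed over the 33 analysed genes outside the receptor and transcription factor groups, the level was 453 to 469 CPM in the control libraries and 449 to 463 CPM in the SETDB1-knockout libraries. The sums overlapped although single genes rose and fell within them. IFITM3 and IFITM2, which rose, weigh heavily in them, at 73.8 and 19.9 CPM in control and 121 and 46.3 CPM in SETDB1-knockout libraries. Of all 39 tested genes 7 rose and 18 fell, and a sum without the IFITM genes was not computed. For the 7 receptor, kinase and transcription factor genes the sum was 443 ± 5.56 CPM in control and 370.5 ± 4.94 CPM in SETDB1-knockout libraries, of which JAK1 and IFNAR1 were the members called lower. By control level, 8 of 19 genes fell and 4 rose under 10 CPM, 6 of 12 fell and 2 rose between 10 and 30 CPM, and 4 of 8 fell and 1 rose above 30 CPM. Over all genes, with no split by level, 31.6% fell and 31.9% rose.

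**Figure D4:**
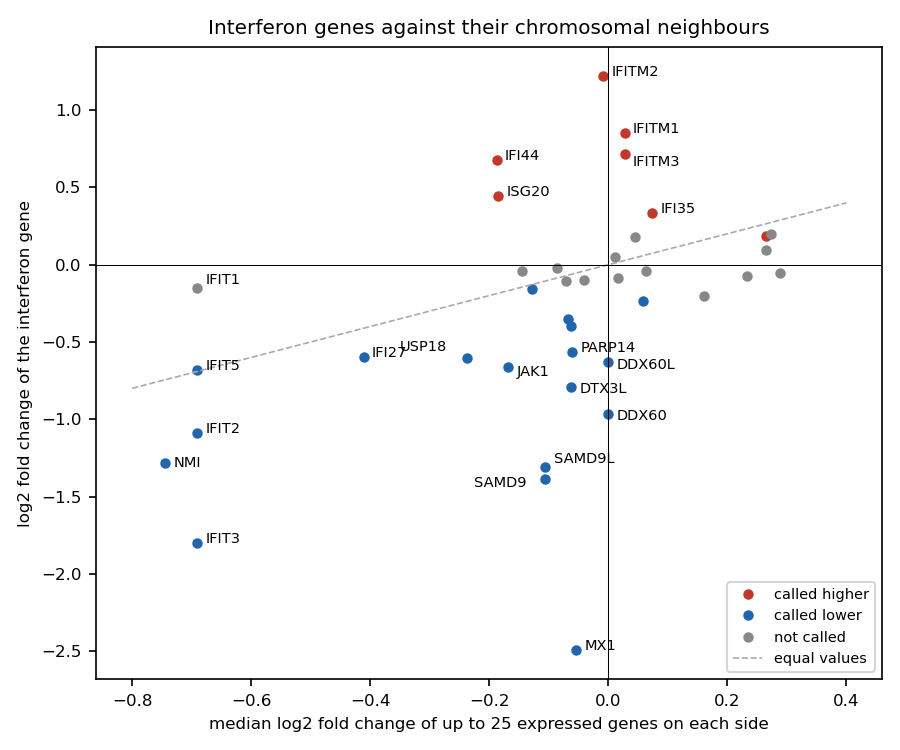
Log2 fold change of each tested interferon gene (y axis) against the median log2 fold change of up to 25 expressed genes on each side of it (x axis); points are genes, colour gives the call and the dashed line marks equal values. The IFIT genes and NMI lie at neighbourhood medians of -0.69 and -0.74, IFIT5 lies on the line, and SAMD9, SAMD9L, MX1 and the IFITM genes lie far from it at medians near 0.

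Chromosomal surroundings differed between the genes. The 4 IFIT genes, NMI and IFI27 lay in stretches where most expressed genes fell (47, 43 and 37 of 50 called lower around IFIT1, NMI and IFI27), and TYK2, STAT2, IRF9, SP110 and PARP12 in stretches with medians of 0.23 to 0.29. With each neighbourhood median taken out, 7 of the 39 genes were called higher and 18 lower, which is the same number each way as before. Of all 17675 genes tested, 5344 were then called higher and 4687 lower, against 5635 and 5584 before this step. The interferon genes behind the unchanged numbers differed: HERC5, IFI27, IFIT5 and PARP12 lost their calls, IFIT1 became higher, and STAT2 (-0.31), UBE2L6 (-0.36) and TYK2 (-0.17) became lower. For the IFITM genes, SAMD9, SAMD9L, DDX60, DDX60L, DTX3L, PARP14, MX1 and IFIT3 the call and its direction were the same with and without this step.

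Genes with ISRE letters moved in both directions. Of the 23 tested genes with ISRE letters in a promoter window, 5 rose, 13 fell and 5 were not called, with a median log2 fold change of -0.23 and a range of -2.50 to 0.85. Both counts stand beside 31.9% higher and 31.6% lower over all genes. Of the 10 tested genes whose windows lacked the letters, 1 rose, 3 fell and 6 were not called, with a median of -0.06. The stretches printed above illustrate this: the run GAAACTGAAA occurs in IFITM1, which rose by 0.85 on the log2 scale, and in SAMD9, DDX60 and DTX3L, which fell by 1.38 ± 0.08, 0.96 ± 0.11 and 0.79 ± 0.07 (SE). The ISG15 stretch holds overlapping matches and its gene was not called.

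**Figure D5:**
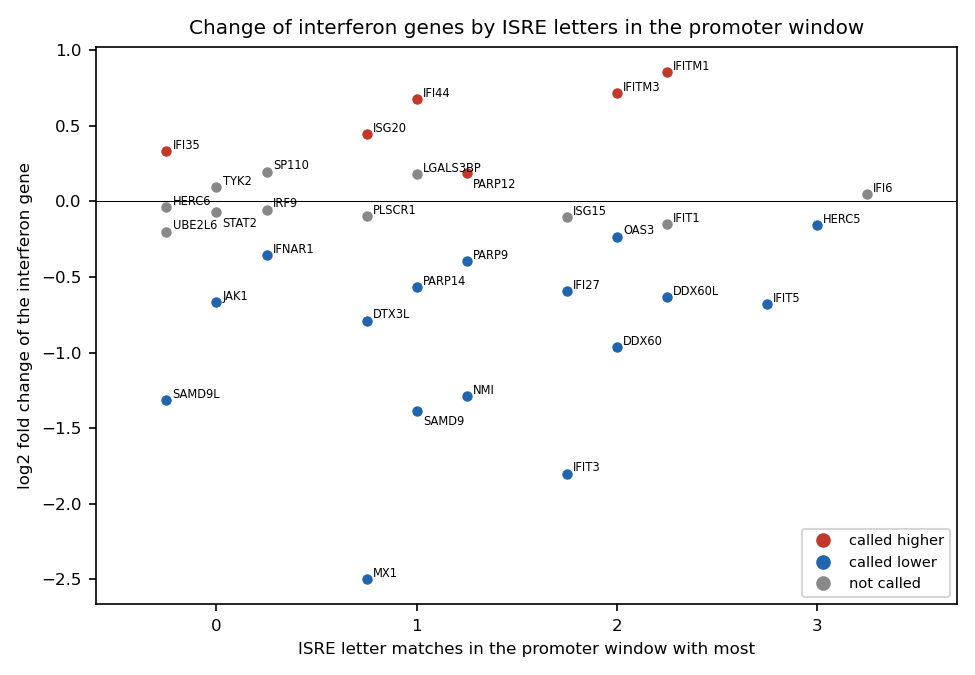
Log2 fold change of 33 tested interferon genes (y axis) by the number of ISRE letter matches in the promoter window that has most (x axis, 0 to 3, points spread sideways for legibility); colour gives the call. Genes with 1 or 2 matches lie on both sides of 0, from MX1 at -2.50 to IFITM1 at 0.85.

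A further list held 74 other genes of the interferon pathway and its known targets, of which 58 were tested. Of these, 17 rose (29.3%), 28 fell (48.3%) and 13 were not called, against 31.9% higher and 31.6% lower over all genes. Their median log2 fold change was -0.16. The 3 largest rises with at least 1 CPM were those of BST2, PSMB9 and IFNE. BST2, which encodes the virion tether tetherin, had 2240 counts with the SETDB1 guide and 3 with the control guide, a ratio of 733.8 (95% counting interval 250.8 to 3561). BST2 reached the row minimum of 11 counts only in SETDB1-knockout libraries, and the interval does not account for this selection. PSMB9, an immunoproteasome subunit gene, rose 2.74-fold to 8.698 ± 0.575 CPM (edgeR adjusted p = 4.71e-10). IFNE, the gene of an epithelial type I interferon, had 0.934, 0.536 and 0.6496 CPM in control and 1.57, 1.42 and 1.93 CPM in SETDB1-knockout libraries.

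IFNE was low in every library but without overlap of the groups, at 2.33-fold higher (edgeR adjusted p = 7.16e-05). No other interferon gene of the list was analysed here. Among the large falls, TMEM140, a membrane protein gene, fell by 1.63 ± 0.24 on the log2 scale (edgeR adjusted p = 7.56e-06). SP100, a nuclear body gene, fell by 1.53 ± 0.07, from 30.05 ± 1.54 to 10.4 ± 0.359 CPM (edgeR adjusted p = 2.02e-13).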

How the data were processed

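Total RNA from 6 samples was sequenced, and the values deposited by the authors are whole-number counts by Ensembl gene, not normalized. FastQC, TopHat2, HTSeq and GRCh38.p7 appear in the submitters' processing notes. Tool versions, settings and the use of strand were not given in the sources used here. No row had fewer than 11 counts in its highest library. Identifiers were matched without version to GENCODE 29 (18595 of 18677).

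Groups and replicate numbers came from the titles. In R 4.3.3, edgeR 4.0.16 kept 17675 genes (filterByExpr), scaled libraries by TMM and fitted robust quasi-likelihood models of SETDB1 knockout over control. The Benjamini-Hochberg adjustment covered every gene tested (threshold 0.05). The steps were tried on simulated data in which few genes changed, whereas 63.5% of the genes tested were called here. Scaling under such wide change was not tried. CPM used TMM-scaled totals, RPKM the union exon length. Errors are SD over 3 libraries, or the SE of a log2 fold change. Neighbourhood medians used up to 25 genes with a log2 CPM above 3 on each side.

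Genes given by library were the called ones with a log2 change of at least 0.5 and 1 CPM, the receptor, kinase and transcription factor genes, and ISG15. Other pathway genes named were among the 3 largest called rises and the 3 largest called falls with at least 1 CPM; some results are not reported here. MX1, OAS3 and CMPK2 were described as well. The printed promoter stretches were chosen after their genes' values were seen. The genes and lists were chosen with earlier results of these data known. Alternatives were other scalings (DESeq2-style size factors, library size, upper quartile), 2 other filters, DESeq2 1.42.0, limma-voom 3.58.1, an adjusted p under 0.01, glmTreat against 1.5-fold, a replicate block, each library left out, and neighbourhood medians taken out.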

Additional observations from a re-analysis of the deposited data

How the results depend on the processing

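All alternatives were compared for the counts of interferon genes called, for their median and for each named gene. Against a fold of 1.5 (glmTreat) the numbers dropped, to 3 higher and 8 lower interferon genes, 8 higher and 12 lower other pathway genes, and 1556 higher and 1496 lower genes of all; a stricter null gives fewer calls by construction. Under all other alternatives these counts were within 1.5 times the values reported. The median over the interferon genes, -0.15, was negative throughout and moved by more than its spread between libraries (0.0083) to -0.11 with library size alone, -0.12 with upper-quartile scaling, -0.13 without a filter (40 genes), -0.12 with at least 1 CPM in 3 libraries (38 genes) and -0.17 with the neighbourhood median taken out; with 1 library left out it ran from -0.16 to -0.11.

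The direction turned for some genes. With the neighbourhood median taken out these were HERC6 (0.11), IFIT1 (0.54), IFIT5 (0.0087), IFNAR2 (0.065), PARP12 (-0.079), SP110 (-0.077) and TYK2 (-0.17). With library size alone HERC6 was at 3.3e-04 and IFNAR2 at 0.021, and with upper-quartile scaling IFNAR2 was at 0.012. With 1 library left out, IFNAR2 ran from -0.0992 to 0.0201 (above 0 without control replicate 1 or 2), IRF7 from -0.108 to 0.0202 (above 0 without SETDB1-knockout replicate 1 or control replicate 1) and IRF9 from -0.2701 to 0.0975 (above 0 without SETDB1-knockout replicate 2). Taking out the neighbourhood median moves each gene by about that median by construction. The change from the main fit had a median over genes of 0.041 with library size alone and 0.032 with upper-quartile scaling. The cause of the turns with 1 library left out was not tested.

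No sign of pairing by replicate number was seen: same-numbered deviations from the group means correlated at 0.088, -0.063 and 0.025. Unlike-numbered ones ran from -0.133 to 0.123. With 3 libraries per group these values cannot show that pairing was absent. With the replicate block 8 interferon genes were higher and 18 lower, the additional one being LGALS3BP. Of all 17675 genes tested, 5864 were higher and 5839 lower with this block. Depth limits MX1, CMPK2, IRF9 and other genes near 1 CPM.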
